A study of Mus musculus with 8 samples.

Results

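Collagen genes encode the chains of the triple-helical proteins that give connective tissue its fibres, sheets and filaments. Genes were taken as collagens when their symbol consisted of Col, a number, the letter a and a number, and when the gene table listed them as protein-coding. This gave 44 collagen genes among 45777 genes measured, of which 28 reached 1 FPKM in at least 1 library and are described here. FPKM counts sequenced fragments per unit of transcript length and of library size, so levels can be compared between genes. By role, 11 of the 44 were fibrillar collagens, 8 were basement membrane collagens and 25 were other collagens. The described genes were 7, 6 and 15 of these.

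The libraries came from liver and colon of mice of a non-alcoholic steatohepatitis (NASH) study, and the question of the series was what extracellular vesicles (EVs) from bovine colostrum do to the transcriptome. In each tissue there were 4 groups, namely control mice, NASH mice, and mice given the vesicles at a low dose or at a high dose. Each of the 8 groups held 1 library. That the vesicle groups also had NASH comes from the design text of the series. The labels used here state neither the amount of vesicles, the route and duration of dosing, the way NASH was induced, the strain, sex and age of the mice, nor whether RNA of several mice was pooled. With 1 library per group no test was possible, so every difference given here is one between single libraries, without an error.

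As background, fibrillar collagens such as types I and III assemble into the banded fibres that accumulate in scarred liver. Type IV collagen forms the sheet-like network of basement membranes, and types XV and XVIII link that network to the surrounding matrix. In liver, activated stellate cells and portal fibroblasts are the main source of fibrillar collagen, and in colon it is made by fibroblasts and smooth muscle of the wall.

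Several collagen genes are neighbours in the mouse genome. Col3a1 (chromosome 1, 45311538 to 45349706) and Col5a2 (chromosome 1, 45374331 to 45503282) lie 24624 bases apart. Col6a1 and Col6a2 lie 85161 bases apart on chromosome 10. The type IV genes stand in head-to-head pairs: Col4a1 and Col4a2 on chromosome 8 overlap by 85 bases at their starts, while Col4a5 and Col4a6 on the X chromosome are 1274 bases apart. Coordinates are those of RefSeq on GRCm38.p6, the assembly also known as mm10.

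The sequences before 4 gene starts are shown, for Col3a1 and Col1a2 because they were the most abundant fibrillar collagens of both tissues, and for Col4a5 and Col4a6 because these neighbours differed in the colon. Each is the RefSeq sequence on GRCm38.p6 read 5′ to 3′ on the gene's own strand and ending at the base before the gene, with bases inside the annotated gene left off. Capitals mark every match that lies wholly within the printed bases, on either strand, to the CCAAT box, to TATAA, the core of the TATA box, and to GGGCGG, the core of the GC box. The Col3a1 sequence is chr1:45311288-45311537 (plus strand), that of Col1a2 is chr6:4505368-4505617 (plus strand), that of Col4a5 is chrX:141475169-141475369 (plus strand) and that of Col4a6 is chrX:141474096-141474326 (minus strand).
Col3a1: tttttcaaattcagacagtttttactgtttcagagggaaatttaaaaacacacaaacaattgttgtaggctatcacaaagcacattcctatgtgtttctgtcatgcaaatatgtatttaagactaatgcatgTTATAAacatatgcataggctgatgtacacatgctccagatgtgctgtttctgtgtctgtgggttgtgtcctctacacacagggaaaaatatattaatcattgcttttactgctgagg
Col1a2: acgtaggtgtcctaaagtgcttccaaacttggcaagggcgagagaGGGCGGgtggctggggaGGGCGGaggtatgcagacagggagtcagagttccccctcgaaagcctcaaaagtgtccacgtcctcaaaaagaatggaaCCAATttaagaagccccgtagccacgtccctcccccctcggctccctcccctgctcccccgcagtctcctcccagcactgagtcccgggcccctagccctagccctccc
Col4a5: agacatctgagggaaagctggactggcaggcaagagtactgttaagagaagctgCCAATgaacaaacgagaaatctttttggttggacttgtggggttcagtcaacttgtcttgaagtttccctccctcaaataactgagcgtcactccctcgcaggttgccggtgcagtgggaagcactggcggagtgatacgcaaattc
Col4a6: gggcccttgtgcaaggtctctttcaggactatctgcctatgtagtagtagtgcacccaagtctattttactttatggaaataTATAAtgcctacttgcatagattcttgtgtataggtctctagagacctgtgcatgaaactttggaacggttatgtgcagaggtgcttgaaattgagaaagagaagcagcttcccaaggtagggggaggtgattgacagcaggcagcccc
The Col3a1 stretch held a TATAA match on each strand, overlapping by all but the outer base, and no CCAAT or GGGCGG match. The Col1a2 stretch held 2 GGGCGG matches and 1 CCAAT match. Col4a5 held a CCAAT match and Col4a6 a TATAA match. The full windows of Col4a5 and Col4a6 each held 1 GGGCGG match as well, not wholly within the printed bases and so not marked. Promoter windows of 250 bases before the start were given for 35 of the 44 collagen genes, and for 24 of the 28 described, with 38 windows in all. Matches to GGGCGG were present in 57.9% of the 38 collagen windows, 42.6% of the 21296 windows of protein-coding genes and 32.7% of all 32851 windows. CCAAT was present in 34.2% of collagen windows against 35.4% for protein-coding genes and 33.8% for all, and TATAA in 18.4% against 20.3% and 22.8%. In the sequences shown no match to one motif overlaps a match to another, and a match describes the letters of a window, not a site in use.

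The libraries carried their tissue's markers. The 8 hepatocyte markers summed to between 25150.0 and 36459 FPKM in liver and between 29.0 and 60.2 FPKM in colon, and the 8 colon epithelial markers to between 2920.1 and 3585 FPKM in colon and at most 4.37 FPKM in liver. The absolute depth is unknown. The spacing of low values placed the other liver libraries at 1.24 to 1.47 times the depth of the liver NASH library, and the other colon libraries at 1.09 to 1.30 times the depth of the colon NASH library, each read from the 29 to 43 genes at the commonest ratio. The colon NASH library stood apart: 5 seminal vesicle genes summed to 14373 FPKM there and were listed at 0 in the other 7 libraries, and the colon EV high dose library held pancreatic markers at 2221 FPKM against 182 or less in the other colon libraries. Ratios below are log2 ratios of FPKM + 1, which understate differences of genes near or below 1 FPKM, and a gene counts as apart at 2-fold, a log2 ratio of 1. A gene was kept for a tissue when it reached 1 FPKM in 1 of its 4 libraries. Because the median liver gene lay 0.55 higher in NASH than in control, and at -0.14 and -0.13 in the low and high dose libraries against NASH, liver ratios are given relative to the median gene. FPKM are as deposited.

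**Figure D1:**
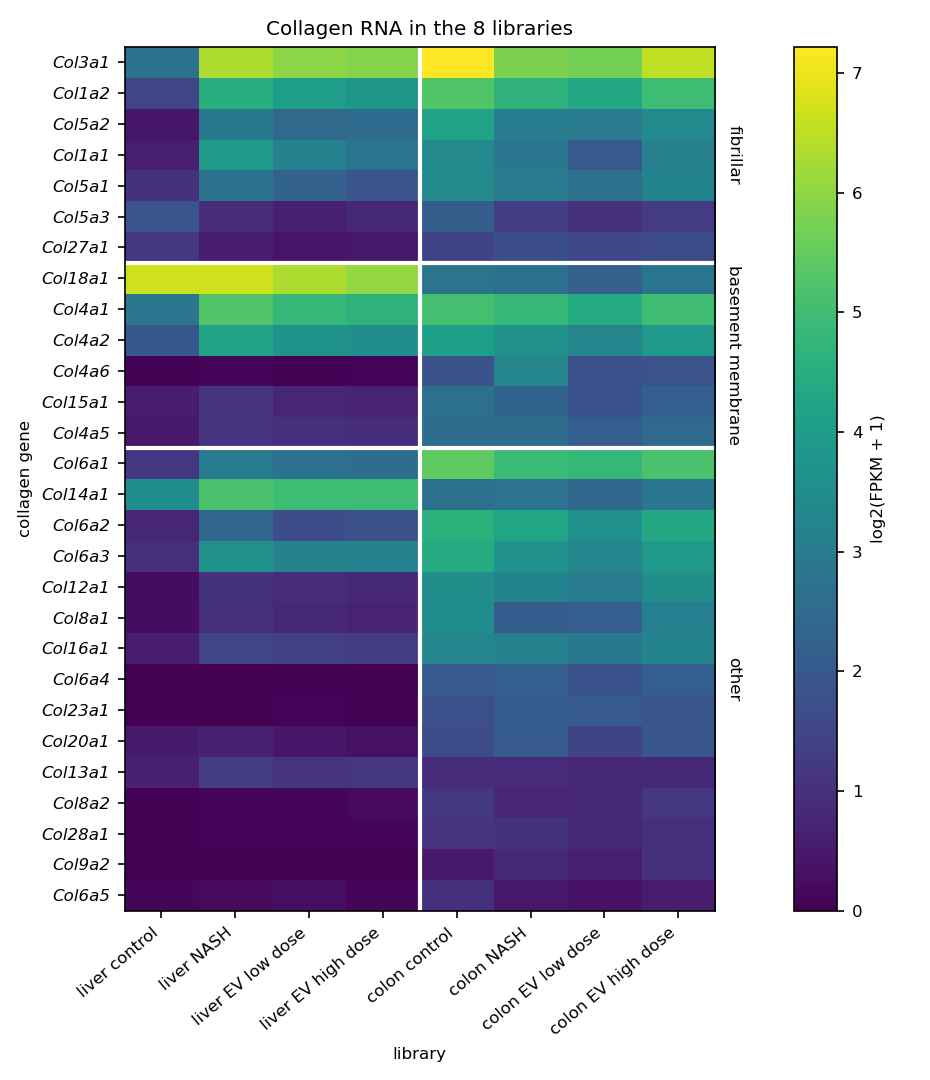
Collagen levels in the 8 libraries. Each row is one of the 28 described collagen genes, grouped by role, and the colour gives log2(FPKM + 1) in the library of that column. Col18a1 is the brightest gene of the control liver at 102 FPKM, and Col3a1 is bright in all libraries but the control liver, where it was at 5.57 FPKM.

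In the control mice, the collagens that dominated the colon were scarce in the liver. Of the 28 described genes, 21 were 2-fold or more higher in control colon than in control liver and 1 was 2-fold lower, where 41.8% of all 16284 genes at 1 FPKM in any library were higher and 8.33% lower. The median log2 ratio was 2.11 for the collagens and 0.84 for all genes, both as deposited. Col3a1 was at 148 FPKM in colon and 5.57 FPKM in liver (log2 4.50), and Col6a1, a chain of the beaded filaments around cells, at 42.2 and 1.23 FPKM (log2 4.27). The lower gene was Col18a1, whose chain releases endostatin when cut, at 5.85 FPKM in colon and 102 FPKM in liver (log2 -3.91). Col14a1, which lies on the surface of fibrils, was also higher in liver, at 10.4 against 5.36 FPKM, short of 2-fold (log2 -0.84).

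The liver of the NASH mice held more collagen RNA than the liver of the control mice, led by the fibrillar genes. Of 19 collagens kept in liver, 11 were 2-fold or more higher in NASH, where 7.21% of all 12866 liver genes were, and 2 were 2-fold lower, where 7.66% were. The 11 were Col1a1, Col1a2, Col3a1, Col5a1, Col5a2, Col4a1, Col4a2, Col6a1, Col6a2, Col6a3 and Col14a1. The median log2 ratio was 1.07 over the 19 collagens and 0.00 over all genes by construction. With a pseudocount of 5 FPKM in place of 1, which damps low genes most, 7 collagens were 2-fold higher and 0 lower, where 3.07% and 3.19% of all genes were. Without centring, 11 collagens were higher and 0 lower, where 20.5% of all genes were higher and 3.23% lower. In whole tissue, a larger share of collagen-making cells and more collagen RNA per cell cannot be told apart.

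Among fibrillar collagens the type III and type I chains stood out. Col3a1, the chain of type III collagen, was at 5.57 FPKM in control liver, 79.5 in NASH, 61.8 with the low dose and 58.0 with the high dose. Its log2 ratio of NASH over control was 3.06, which ranked 30 from the top among 12866 genes. Control was thus far below the other 3 liver libraries, and NASH was the highest.

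Type I collagen, the main protein of scar fibres, is built from the chains of Col1a1 and Col1a2. Col1a1 (chromosome 11, 94936224 to 94953042) was at 0.516, 14.6, 7.95 and 5.91 FPKM in control, NASH, low dose and high dose liver, with a log2 ratio of NASH over control of 2.81 (rank 39). Col1a2 (chromosome 6, 4505618 to 4541543) was at 1.82, 21.9, 15.1 and 13.0 FPKM, with a log2 ratio of 2.47 (rank 64). Both chains were lowest in control and highest in NASH, and both vesicle libraries lay in between.

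Type V collagen sits inside type I fibrils and limits their width, and its chains did not move as one. Col5a1 was at 1.08, 5.51, 3.87 and 2.76 FPKM in control, NASH, low dose and high dose liver (NASH over control, log2 1.09). Col5a2 was at 0.365, 6.54, 4.59 and 4.76 FPKM (log2 1.91). Col5a3 ran the other way, at 2.66, 0.891, 0.542 and 0.783 FPKM (log2 -1.51), and was the fibrillar gene with the second highest control level.

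Col27a1, a fibrillar collagen known from cartilage, was also lower in NASH, at 1.25, 0.503, 0.322 and 0.381 FPKM across the same libraries (log2 -1.13). Both lower calls rest on the scaling: without centring on the median gene the log2 ratios were -0.95 for Col5a3 and -0.58 for Col27a1, short of 2-fold. In both genes control was the highest liver library and the low dose the lowest.

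Basement membrane collagens split between type IV, which was higher in NASH liver, and type XVIII, which was abundant throughout. Col4a1, the main type IV chain, was at 6.16, 37.1, 27.2 and 24.7 FPKM in control, NASH, low dose and high dose liver (NASH over control, log2 1.86). Its partner chain Col4a2 was at 3.0, 17.6, 12.1 and 10.7 FPKM (log2 1.67). Both were lowest in control and highest in NASH, with the low dose above the high dose.

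Col18a1, the most abundant collagen of liver with a mean of 87.3 FPKM over the 4 libraries, was at 102 FPKM in control, 103 in NASH, 79.9 with the low dose and 64.6 with the high dose. Control and NASH were nearly level as deposited (log2 0.00), so the ratio of -0.55 relative to the median gene reflects the scaling, and scaling to the same sum of protein-coding FPKM gave 0.23. The 2 vesicle libraries were the lowest on the deposited scale. Col4a5 and Col15a1 stayed within 2-fold, with log2 ratios of 0.10 and -0.00 and at most 1.16 FPKM.

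Of the other collagens, the 3 main chains of type VI collagen and the fibril-associated Col14a1 were 2-fold higher in NASH liver. Col6a3 was at 0.993, 11.5, 8.29 and 8.12 FPKM in control, NASH, low dose and high dose liver (NASH over control, log2 2.10). Col6a1 was at 1.23, 6.91, 5.63 and 4.94 FPKM (log2 1.27), and Col6a2 at 0.707, 4.17, 2.29 and 2.43 FPKM (log2 1.05). All 3 chains were lowest in control and highest in NASH.

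Col14a1, the third collagen of liver by mean level at 26.3 FPKM, was at 10.4, 34.1, 30.3 and 30.4 FPKM in the same order (log2 1.07). Here the 3 NASH libraries were close together and control was low. With median-of-ratios scaling its ratio was 0.90, short of 2-fold. Col16a1, Col12a1 and Col13a1 lay between 0.06 and 0.40, at no more than 1.87 FPKM.

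Marker sums of collagen-making cells were also higher in the NASH liver library than in control. The sums are as deposited, where the median liver gene lay 0.55 higher in NASH. The log2 ratios are relative to that median gene. The 6 myofibroblast markers summed to 6.52 FPKM in control, 45.1 in NASH, 36.4 with the low dose and 32.9 with the high dose, and 5 of the 6 were 2-fold higher in NASH (median log2 1.66). The 10 stellate cell markers summed to 58.3, 106, 99.4 and 99.2 FPKM, with 0 of the 10 past 2-fold (median log2 0.38), and the 10 fibroblast markers to 67.8, 220.3, 209.7 and 236 FPKM. Of the fibroblast list 5 of 10 were kept and 3 were 2-fold higher, and Dcn alone gave 185 of the 220.3 FPKM in NASH. The 6 macrophage markers summed to 76.9, 355, 330.3 and 332 FPKM. The 10 endothelial markers summed to 88.8, 134, 120.4 and 138 FPKM, with 1 of the 10 2-fold higher in NASH (median log2 -0.04). Hepatocyte markers ran the other way, from 36459 FPKM in control to 25150.0 in NASH, with 3 of 8 2-fold lower (median log2 -0.83). Over all liver genes 7.21% were 2-fold higher and 7.66% lower. The part of the marker genes in the collagen ratios was not tested.

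**Figure D2:**
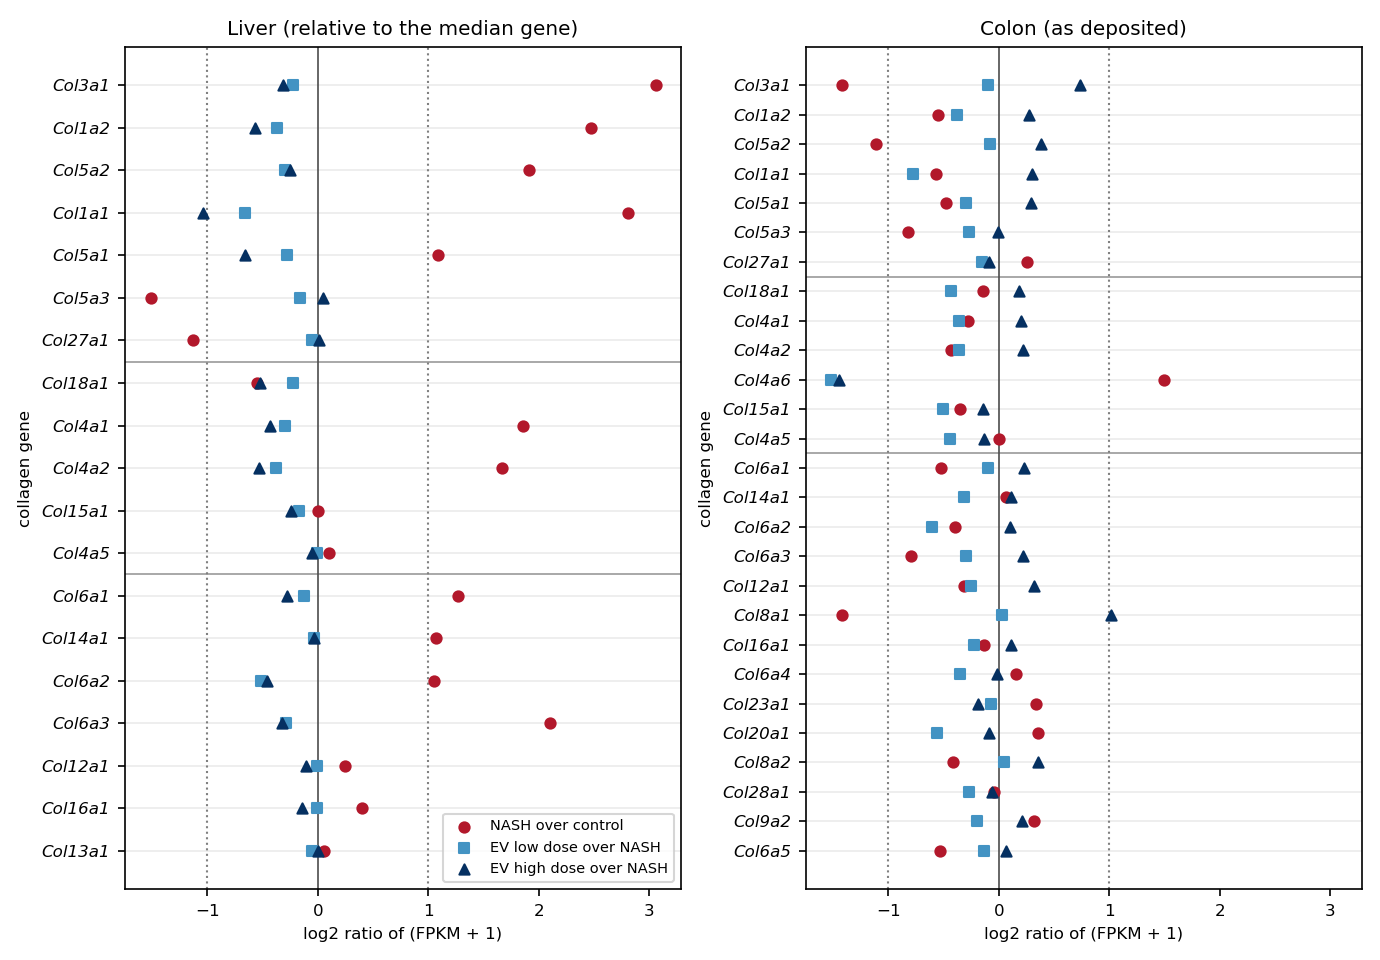
Log2 ratios of the kept collagens in liver (19 genes, relative to the median gene) and colon (27 genes, as deposited) for NASH over control and for each vesicle dose over NASH. Points right of 1 or left of -1 are 2-fold apart. In liver 11 collagens pass 1 in NASH over control and most points of the vesicle ratios lie slightly left of 0. In colon 19 of 27 lie left of 0 in NASH over control, where 6544 of all 15245 colon genes do.

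Against the NASH liver, the livers of vesicle-treated mice held somewhat less collagen RNA, by steps that mostly stayed below 2-fold. In the low dose library 0 of 19 collagens were 2-fold higher and 0 were 2-fold lower, where 0.443% and 0.225% of all liver genes were, and the median log2 ratio was -0.22 with all 19 below 0. In the high dose library 0 were higher and 1 was lower, where 0.816% and 0.373% of all genes were. The median was -0.28 with 16 below 0. Centring places 6433 of the 12866 liver genes below 0 for either dose. The comparisons of both doses share the NASH library with NASH over control, so the level of that 1 library enters all of them.

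Col1a1 was the gene past 2-fold, with a log2 ratio of -0.66 for the low dose and -1.04 for the high dose over NASH, the latter ranking 38 from the lowest of 12866 genes. That call is marginal, since median-of-ratios scaling gave -0.97 and a pseudocount of 5 FPKM gave -0.77. Col1a2 had -0.37 and -0.57, and Col5a1 had -0.28 and -0.66. Col3a1 had -0.22 and -0.31, smaller steps than those of the type I chains.

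Basement membrane genes took steps of like size. Col4a1 had log2 ratios of -0.30 and -0.43 for the low and high dose over NASH, Col4a2 -0.38 and -0.53, and Col18a1 -0.22 and -0.52. Among the others, Col6a2 had -0.51 and -0.46, while Col14a1 stood at -0.03 for both doses. Medians over the fibrillar, basement membrane and other collagens were -0.28, -0.22 and -0.05 for the low dose and -0.31, -0.43 and -0.14 for the high dose.

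Between the doses the liver differed little. Of the 19 collagens 0 were 2-fold higher in the high than in the low dose and 0 were 2-fold lower, where 0.303% and 0.163% of all genes were, and the median log2 ratio was -0.09. Col1a1 and Col5a1, each at -0.38, were the lowest of the 19, and Col5a3 at 0.21 the highest. On the deposited scale 17 of 19 collagens were highest in NASH among the 4 liver libraries, where 57.2% of all genes were, and Col27a1 and Col5a3 were the exceptions. With median-of-ratios scaling the count was 14 of 19, against 24.9% of all genes.

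Set against control in place of NASH, both vesicle livers still carried more collagen RNA. With the low dose 9 collagens were 2-fold higher and 2 lower than in control, where 6.50% and 5.69% of all genes were, with a median log2 ratio of 0.84. With the high dose 9 were higher and 3 lower, where 6.28% and 5.14% of all genes were, with a median of 0.62.

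The make-up of liver collagen RNA shifted from basement membrane to fibrillar genes. All 44 collagens summed to 141 FPKM in control, 353 in NASH, 267 with the low dose and 238 with the high dose, or 0.0323%, 0.0941%, 0.0707% and 0.0597% of the protein-coding FPKM. Fibrillar genes held 9.45% of that sum in control, 36.7% in NASH, 35.3% with the low dose and 36.0% with the high dose. Control stood alone, and the other 3 libraries were within 2 percentage points of one another.

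The shares turn on Col18a1, which made up 72.4% of collagen FPKM in control liver, 29.1% in NASH, 29.9% with the low dose and 27.1% with the high dose. Without Col18a1 the sums were 39.0, 250.2, 187 and 174 FPKM. When Col15a1 and Col18a1 were counted with the other collagens, as some classifications do, the basement membrane share was 6.85%, 15.9%, 15.1% and 15.4% across control, NASH, low dose and high dose liver, in place of 79.6%, 45.3%, 45.3% and 42.7%.

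**Figure D3:**
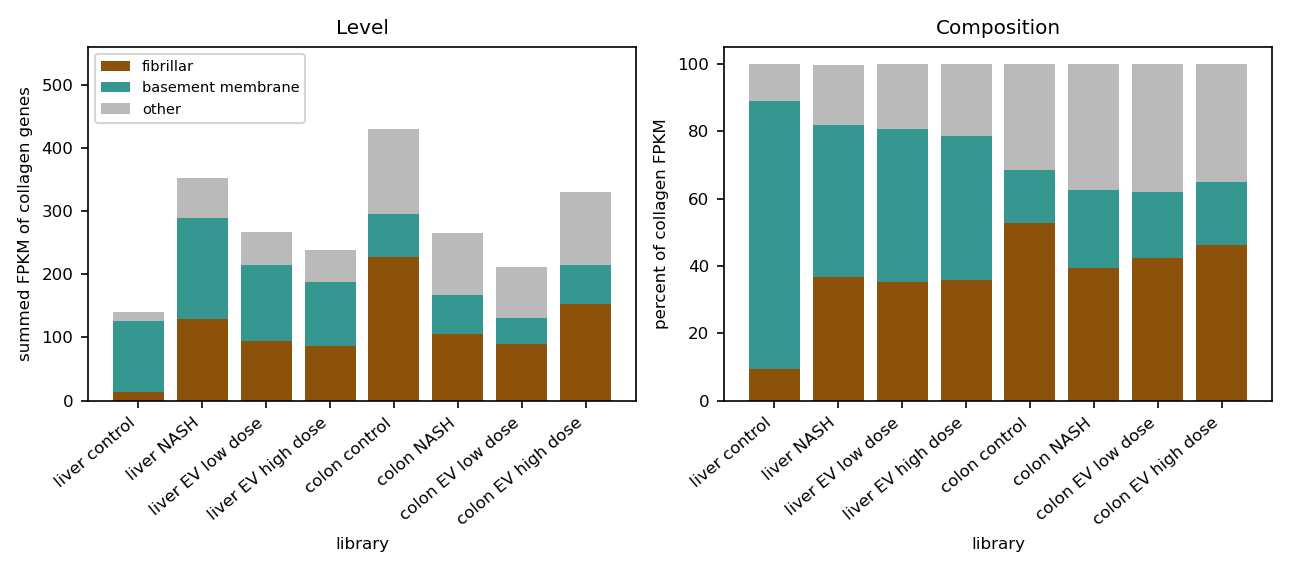
Summed FPKM of all 44 collagens in each library, stacked by role, and the percentage of that sum held by each role. The fibrillar share is 9.45% in control liver and between 35.3% and 36.7% in the other liver libraries, and is highest in the colon in control at 52.8%.

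Chains that are built into one protein were compared by the ratio of their FPKM, which corrects for length. Type IV collagen holds more chains of Col4a1 than of Col4a2, and the FPKM ratio was 2.05, 2.11, 2.26 and 2.31 in control, NASH, low dose and high dose liver and 2.06, 2.33, 2.36 and 2.28 in colon. That ratio lay between 2.05 and 2.36 in all 8 libraries while the Col4a1 level itself ran from 6.16 to 37.1 FPKM. The Col1a1 to Col1a2 ratio, by contrast, was 0.665, 0.527 and 0.455 in NASH, low dose and high dose liver and 0.259, 0.246, 0.165 and 0.257 in colon, below 1 everywhere although the type I molecule holds more chains of Col1a1. It was not formed in control liver, where Col1a1 was under 1 FPKM.

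The Col3a1 to Col1a2 ratio was 3.06, 3.63, 4.10 and 4.47 in control, NASH, low dose and high dose liver, and 3.98, 2.18, 2.68 and 3.03 in colon. In liver control was the lowest library and in colon it was the highest. For type VI collagen the Col6a1 to Col6a3 ratio was 0.601, 0.679 and 0.608 in NASH, low dose and high dose liver and 2.02, 2.50, 2.94 and 2.52 in colon, so Col6a3 exceeded Col6a1 in liver and fell short of it in colon in every library compared.

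**Figure D4:**
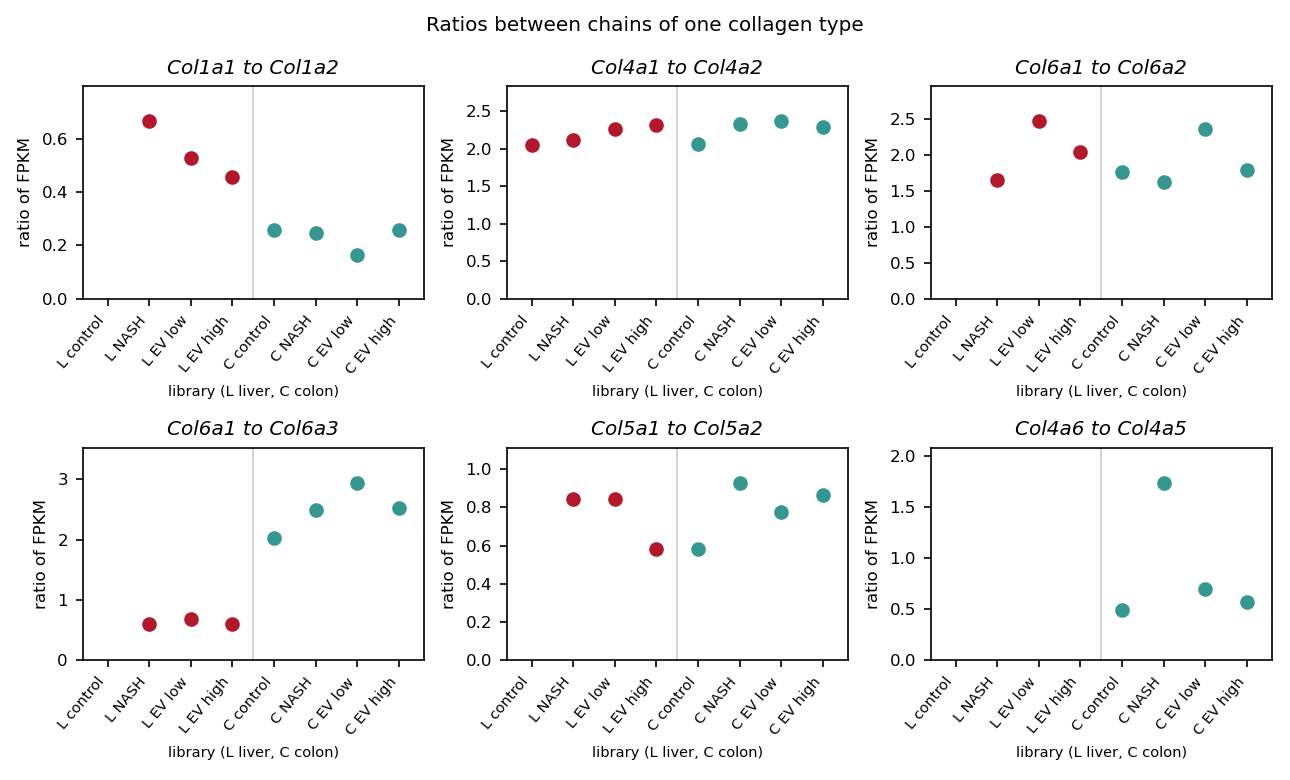
Ratios of the FPKM of paired collagen chains in each library. Points are missing where either chain was under 1 FPKM. Col4a1 to Col4a2 stays between 2.05 and 2.36, Col1a1 to Col1a2 is below 1 in every library shown, and Col4a6 to Col4a5 is above 1 in the colon NASH library, at 1.74.

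In colon the collagen genes stood lower in the NASH library than in control, the reverse of liver, and again the fibrillar genes led. Of 27 collagens kept in colon, 3 were 2-fold or more lower in NASH, where 1.97% of all 15245 colon genes were, and 1 was 2-fold higher, where 2.43% were. The median log2 ratio was -0.35 over the collagens and 0.06 over all genes. Of the 27 collagens 19 were below 0, where 6544 of all 15245 colon genes were. By role the medians were -0.57 for 7 fibrillar, -0.21 for 6 basement membrane and -0.22 for 14 other collagens. The counts move with the pseudocount: 5 were lower at 0.1 FPKM, and 1 lower and 0 higher at 5 FPKM.

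Col3a1, the most abundant collagen of colon with a mean of 86.5 FPKM, was at 148 FPKM in control, 54.8 in NASH, 51.2 with the low dose and 92.1 with the high dose (NASH over control, log2 -1.42). Col5a2, its neighbour on chromosome 1, was at 17.0, 7.36, 6.90 and 9.90 FPKM (log2 -1.11). Col8a1, a network collagen of vessels and smooth muscle, was at 10.5, 3.32, 3.42 and 7.75 FPKM (log2 -1.42). In all 3 genes control was the highest colon library, the high dose came second, and NASH and the low dose were close together.

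The type I chains differed less. Col1a1 was at 9.63, 6.16, 3.16 and 7.81 FPKM in control, NASH, low dose and high dose colon (NASH over control, log2 -0.57), and Col1a2 at 37.2, 25.1, 19.1 and 30.4 FPKM (log2 -0.55). The low dose library was the lowest of the 4 for both chains. Col5a3 was at 3.34, 1.46, 1.04 and 1.44 FPKM (log2 -0.82) and Col5a1 at 9.93, 6.82, 5.34 and 8.55 FPKM (log2 -0.48), in each case with control the highest.

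Type VI chains, which are abundant in the colon wall, were within 2-fold in NASH over control. Col6a1 was at 42.2, 29.1, 27.1 and 34.3 FPKM in control, NASH, low dose and high dose colon (NASH over control, log2 -0.52). Col6a2 was at 23.9, 17.9, 11.5 and 19.3 FPKM (log2 -0.40), and Col6a3 at 20.8, 11.6, 9.21 and 13.6 FPKM (log2 -0.79). The order of libraries was the same for the 3 chains, from control through high dose and NASH to low dose.

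Col4a6, a type IV chain of smooth muscle and some epithelial basement membranes (chromosome X, 141165403 to 141474095), was the collagen 2-fold higher in the NASH colon. It was at 2.44 FPKM in control, 8.74 in NASH, 2.40 with the low dose and 2.58 with the high dose (NASH over control, log2 1.5). Its head-to-head neighbour Col4a5 was at 5.0, 5.01, 3.42 and 4.50 FPKM (log2 0.00), so the ratio of Col4a6 to Col4a5 was 0.489, 1.74, 0.701 and 0.573. One library alone was thus high for Col4a6, and it is the library with the seminal vesicle genes. Adipocyte markers in it summed to 291 FPKM against 64.9 to 142 FPKM in the other colon libraries. The 5 mesothelial markers summed to 5.33 FPKM against 0.837 to 1.84 FPKM, of which Upk1b alone gave 4.57 FPKM, and the other 4 were at 0.357 FPKM or less. Their part in the Col4a6 value was not tested.

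The main type IV chains of the colon were within 2-fold in all libraries. Col4a1 was at 33.0, 27.1, 20.8 and 31.3 FPKM in control, NASH, low dose and high dose colon (NASH over control, log2 -0.28), and Col4a2 at 16.0, 11.6, 8.82 and 13.7 FPKM (log2 -0.43). Col15a1, which bridges basement membranes and fibrils around vessels and muscle, was at 5.32, 3.97, 2.52 and 3.5 FPKM (log2 -0.35). In each of the 3 genes the low dose library was the lowest.

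The other kept collagens of the colon lay between -0.53 and 0.36 in NASH over control. Col12a1, a fibril-associated collagen, was at 10.8, 8.54, 7.0 and 10.9 FPKM across the 4 libraries (log2 -0.31), and Col16a1 at 8.74, 7.89, 6.62 and 8.6 FPKM (log2 -0.13). Col20a1 and Col23a1, the latter a transmembrane collagen, stood at the upper end with log2 ratios of 0.36 and 0.34. Col6a5, at -0.53 and no more than 1.01 FPKM, stood at the lower end. Col6a4, a type VI chain, was at 3.02, 3.5, 2.53 and 3.43 FPKM in colon and at no more than 0.00934 FPKM in liver. Col9a2, a fibril-associated chain of cartilage, was at 0.406, 0.753, 0.527 and 1.03 FPKM in colon and listed at 0 in all 4 liver libraries, while the cartilage proteoglycan gene Acan was listed at 0 in all 8 libraries. Col8a2, the partner of Col8a1, was at 1.27, 0.712, 0.767 and 1.2 FPKM, with control and the high dose above the other 2 libraries as for Col8a1. Col28a1 lay between 0.735 and 1.16 FPKM, Col27a1 between 1.76 and 2.31 FPKM and Col18a1 between 3.61 and 6.04 FPKM.

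The fibrillar share of colon collagen RNA was 52.8% in control, 39.5% in NASH, 42.3% with the low dose and 46.4% with the high dose. Col3a1 alone held 34.3%, 20.6%, 24.2% and 27.9% of the collagen sum. The sum over all 44 collagens was 431 FPKM in control, 266 in NASH, 212 with the low dose and 331 with the high dose, so control was the highest and the low dose the lowest. Smooth muscle markers summed to 1091, 978, 960.4 and 1261 FPKM in the same libraries and fibroblast markers to 297, 431, 381 and 322 FPKM. In NASH over control 0 of 8 smooth muscle and 0 of 10 fibroblast markers were 2-fold apart (median log2 -0.17 and 0.24). Over all colon genes 2.43% were higher and 1.97% lower. Adamdec1 and Dcn gave 199.7 and 167 of the 431 FPKM in NASH. The part of the marker genes in the collagen values was not tested.

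Against the NASH colon, the low dose library was lower for nearly all collagens and the high dose library slightly higher for most. With the low dose 0 of 27 collagens were 2-fold higher and 1 was 2-fold lower, where 0.905% and 1.95% of all colon genes were, and the median log2 ratio was -0.30 with 25 of 27 below 0. With the high dose 1 was higher and 1 lower, where 1.10% and 1.43% of all genes were, and the median was 0.18 with 18 of 27 above 0. Over all 15245 colon genes the medians were -0.06 and 0.02, with 8628 below 0 for the low dose and 8102 above 0 for the high dose. Set against control in place of NASH, the low dose had 6 collagens 2-fold lower, where 1.74% of all genes were. The high dose over control had 0 higher and 0 lower, where 1.33% and 1.27% of all genes were, with a median of -0.13.

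The lower gene was Col4a6 for both doses, with log2 ratios of -1.52 and -1.45 over NASH, its level being high in the NASH library alone. The higher gene with the high dose was Col8a1 at 1.02, which fell just short of 2-fold at 0.96 when libraries were scaled to the same protein-coding sum. Col3a1 had -0.10 with the low dose and 0.74 with the high dose, Col1a1 -0.78 and 0.30, and Col1a2 -0.38 and 0.27. In these fibrillar genes the sign of the step from NASH thus differed between the doses on the deposited scale. For Col3a1 the low dose step was close to the median of -0.06 over all genes. With median-of-ratios scaling the low dose was not the lowest colon library for Col3a1, so that sign rests on the scaling.

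Between the doses the colon differed more than the liver. Of 27 collagens 1 was 2-fold higher in the high than in the low dose, where 0.872% of all genes were, and 0 were 2-fold lower, where 0.682% were. The median log2 ratio was 0.42 against 0.08 over all genes, and 26 of 27 collagens were above 0, where 9311 of 15245 genes were. Col1a1 was the gene past 2-fold, at 3.16 with the low dose and 7.81 FPKM with the high dose (log2 1.08), followed by Col8a1 (0.98) and Col3a1 (0.84). Col23a1, at -0.12, was the exception below 0. On the deposited scale 22 of 27 collagens were lowest in the low dose among the 4 colon libraries, where 32.4% of all genes were, and 17 of 27 were highest in control, where 20.2% were. With median-of-ratios scaling these counts were 18 and 20, against 25.8% and 26.7% of all genes.

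Most collagens that stood above control in the NASH liver stood below control in the NASH colon. Of the 11 collagens 2-fold higher in NASH liver, all were kept in colon, 10 had a colon ratio below 0 and 2, Col3a1 and Col5a2, were 2-fold lower there. Of all 15245 colon genes 6544 had a ratio below 0 and 1.97% were 2-fold lower. Col14a1 was the exception, at 5.36 FPKM in control colon and 5.66 in NASH colon (log2 0.07). The tissues were not compared by a test. Col5a3 was lower in NASH in both tissues, with log2 ratios of -1.51 in liver and -0.82 in colon.

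Genes that fold, cut and crosslink collagen were examined beside the chains. In liver, 2 of 16 kept genes for chain modification and folding were 2-fold higher in NASH than in control and 1 was lower, with a median log2 ratio of 0.43. Over all liver genes 7.21% were higher and 7.66% lower, and the counts of the 5 lists stand beside these shares. A count of 1 of 16 lower is near that background. Serpinh1, the collagen chaperone HSP47, was at 3.42, 16.7, 12.4 and 12.6 FPKM in control, NASH, low dose and high dose liver (log2 1.45), and Colgalt1, which adds galactose to collagen chains, at 10.3, 35.8, 35.6 and 29.4 FPKM (log2 1.15). Ppib, cyclophilin B, was the lower gene at 337, 236, 267 and 269 FPKM (log2 -1.07).

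For propeptide processing and crosslinking 2 of 11 kept genes were higher and 0 lower, against 7.21% and 7.66% of all liver genes (median log2 0.50). Tgm2, tissue transglutaminase, was at 22.4, 89.1, 69.6 and 64.4 FPKM in the same liver libraries (log2 1.39), and Pcolce, an enhancer of procollagen cleavage, at 1.89, 8.6, 6.94 and 6.63 FPKM (log2 1.18). Both were lowest in control and highest in NASH, as were the type I chains. Bmp1 of the same list was highest in control, at 19.3, 18.3, 15.1 and 14.6 FPKM (log2 -0.62).

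Of 15 kept partners of the fibrils, 8 were 2-fold higher and 0 lower in NASH liver, against 7.21% and 7.66% of all liver genes (median log2 1.0). Lum, the proteoglycan lumican, was at 3.14, 25.8, 23.0 and 29.7 FPKM (log2 2.14), and Sparc, which binds collagen outside the cell, at 13.1, 55.8, 50.4 and 48.6 FPKM (log2 1.46). Bgn, the proteoglycan biglycan, was at 10.3, 40.1, 25.7 and 22.5 FPKM (log2 1.31). Lumican was highest with the high dose, whereas Sparc and Bgn were highest in NASH. Lum, Dcn and Postn of this list are also among the fibroblast or myofibroblast markers above, so the partner and marker lists are not independent.

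Of 14 kept basement membrane partners, 1 was 2-fold higher in NASH liver and 0 lower (median log2 0.36), a count near the 7.21% of all genes that were higher. That gene was Nid1, nidogen 1, which ties laminin to type IV collagen, at 2.28, 23.6, 15.5 and 12.3 FPKM (log2 2.35). Collagen receptors and uptake genes had 2 of 8 higher and 0 lower, against the same 7.21% and 7.66% (median log2 0.58), among them Lair1, an inhibitory collagen receptor of immune cells, at 0.938, 6.30, 6.24 and 7.71 FPKM (log2 1.36). The other was Ddr1, a receptor kinase for collagen, at 0.0608, 2.54, 1.18 and 0.730 FPKM (log2 1.18). Against NASH, 0 genes of these 5 lists were 2-fold apart in either vesicle liver. Over all liver genes 0.443% were higher and 0.225% lower with the low dose, and 0.816% and 0.373% with the high dose. A count of 0 is thus near the background. The list medians lay between -0.22 and 0.12 for the low dose and between -0.33 and 0.09 for the high dose. Bgn stood at -0.49 and -0.67 and Nid1 at -0.44 and -0.75, the low dose first. Other partners stood above 0, with Ppib at 0.31 and 0.33. Postn at 0.43 and Mrc1 at 0.32 with the low dose, and Lum at 0.33 with the high dose, did so too.

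In colon the same partner genes mostly stayed within 2-fold. In NASH over control 1 of 19 folding genes was higher and 0 lower, where 2.43% and 1.97% of all colon genes were. That gene was Creb3l1, a transcription factor of the secretory pathway, at 5.21, 15.3, 3.71 and 10.3 FPKM in control, NASH, low dose and high dose colon (log2 1.39). Its highest libraries were NASH, which holds the seminal vesicle genes, and the high dose, which holds the pancreatic markers. The part of these in the Creb3l1 values was not tested. Of 16 kept fibril partners 0 were higher and 1 was lower, against the same shares, namely Eln, which encodes elastin, at 4.45 FPKM in control and 1.69 in NASH (log2 -1.02). The other 3 lists had 0 genes 2-fold apart, and the medians of the 5 lists lay between -0.21 and 0.19. Serpinh1 was at 42.5 FPKM in control and 24.1 in NASH (log2 -0.79), Sparc at 54.7 and 33.8 (log2 -0.68) and Fbn1, the microfibril protein fibrillin-1, at 11.5 and 5.63 (log2 -0.91). Other partners stood higher in NASH, with log2 ratios of 0.70 for Tnxb, a tenascin that binds fibrils, 0.64 for the procollagen-cleaving Mep1a, 0.61 for Ddr1, 0.54 for Agrn, a basement membrane proteoglycan, 0.51 for Prelp and 0.47 for Colgalt1.

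Against the NASH colon, Creb3l1 was 2-fold lower with the low dose (log2 -1.79), where 1.95% of all colon genes were. The other genes of the lists were within 2-fold, where 0.905% of all colon genes were higher. The median ratios of the 5 lists lay between -0.30 and -0.08. With the high dose 0 genes of the lists were 2-fold apart, where 1.10% of all colon genes were higher and 1.43% lower. The medians lay between -0.00 and 0.21. These counts are near the shares of all genes. Bgn stood at -0.95 and Nid1 at -0.60 with the low dose. Ppib at 0.44, Mep1b at 0.42 and Mep1a at 0.31 stood above 0 with that dose.

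The other 16 collagen genes stayed under 1 FPKM in all 8 libraries and are given no ratios. Col10a1, the collagen of hypertrophic cartilage, was listed at 0 in every library, and the cartilage collagen Col2a1 reached at most 0.0211 FPKM. The type IV chains Col4a3 and Col4a4, known from the kidney filter, reached 0.119 and 0.115 FPKM, and the minor fibrillar chains Col11a1, Col11a2 and Col24a1 reached 0.290, 0.271 and 0.593 FPKM. Col7a1, the anchoring fibril collagen of skin, reached 0.325 FPKM and the hemidesmosome collagen Col17a1 0.101 FPKM. Col6a6, Col9a1, Col9a3, Col19a1, Col22a1 and Col26a1 reached at most 0.244 FPKM. At the threshold, Col25a1 lay just below with a highest value of 0.619 FPKM and Col6a5 just above with 1.01 FPKM.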

How the data were processed

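The deposited table held FPKM, 1 column per library, for 45777 NCBI gene IDs, of which 45679 matched a symbol of GRCm38.p6 and 98 did not. Per the labels' protocols, total RNA was isolated with TRIzol and RNeasy Plus, and libraries were made with TruSeq Stranded Total RNA Gold. Per the submitters' processing notes, Trimmomatic 0.38, HISAT2, StringTie and mm10 were used. The role of each tool, further versions, sequencing depth and any pooling of mice were not given in the sources used here. Titles of the samples gave the groups.

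From the FPKM, log2(FPKM + 1) was computed with Python 3.11.15, numpy 2.4.6 and pandas 2.3.3. Genes with 1 FPKM or more in any of a tissue's 4 libraries were kept, 12866 in liver and 15245 in colon. Ratios in liver were centred on the median gene, and 2-fold was the threshold for counts. With 1 library per group no test was run. Collagens were named with values for all 4 libraries when 2-fold apart in any comparison or among the 6 highest by mean, and partner genes, at most 4 per list, by largest ratio at 5 FPKM or more; Eln and Ddr1 were named after their values were seen. The members and lists were chosen with earlier results of these data known. Counts of genes highest or lowest in 1 library, and ratios over control, were added after the values were seen. Alternatives were pseudocounts of 0.1 and 5 FPKM, median-of-ratios scaling, the same protein-coding sum, centring or none, other filters, and other collagen classes. The code was tested on simulated data.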

Additional observations from a re-analysis of the deposited data

Results flagged for a closer look

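For Col3a1 and Col5a2 the NASH libraries lay 2-fold or more above control in liver and 2-fold or more below control in colon. The log2 ratio in liver less that in colon was 4.48 for Col3a1 and 3.02 for Col5a2. Here the liver ratio is relative to the median gene and the colon ratio as deposited. As deposited the liver ratios were 3.61 for Col3a1 and 2.47 for Col5a2. Each tissue had 1 library per group, and the difference between tissues was not tested.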

How the results depend on the processing

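No paired analysis was possible because each group holds 1 library, and for the same reason no replicate could be left out. Of the main counts and medians under the alternatives, 146 stayed equal or within 1.5 times the main value, 28 moved further and 3 reversed in sign. The medians named below as reversed are those with control as the reference, which is another comparison. In liver, NASH over control, collagens higher numbered 7 with a pseudocount of 5 FPKM, where 3.07% of all genes were higher. Collagens lower numbered 0 with that pseudocount, as deposited, with the same protein-coding sum, without a filter and with a filter at 5 FPKM, and 1 with median-of-ratios scaling or a filter on the mean. The shares of all genes lower were 3.19%, 3.23%, 2.45%, 0.909%, 9.89%, 9.18% and 7.39%, in the order named. The median was 1.79 with the same protein-coding sum, 1.85 with the 5 FPKM filter and 0.09 over all 44 collagens without a filter, where the added genes are under 1 FPKM in every liver library. In high dose over NASH, collagens lower in liver numbered 0 with a pseudocount of 5 FPKM or median-of-ratios scaling. Over all liver genes 0.0700% and 0.264% were lower in these settings. With control as the reference, liver had 9 higher, 2 lower and a median of 0.84 for the low dose, and 9, 3 and 0.62 for the high dose, both medians reversed. Over all liver genes 6.50% were higher and 5.69% lower for the low dose, and 6.28% and 5.14% for the high dose. In colon, NASH over control, collagens lower numbered 5 with a pseudocount of 0.1 and 1 with 5 FPKM, where 0 were higher. In low dose over NASH, collagens lower numbered 0 with a pseudocount of 5 FPKM and 6 over control, where 0.525% and 1.74% of all genes were. In high dose over NASH, collagens higher numbered 0 with a pseudocount of 5 FPKM, relative to the median gene, with the same protein-coding sum and over control. The shares of all colon genes higher were 0.538%, 1.08%, 1.03% and 1.33%, in the order named. Collagens lower numbered 0 with a pseudocount of 5 FPKM and over control, where the median reversed to -0.13. Over all colon genes 0.492% and 1.27% were lower in these settings. For single genes and shares, 507 values stayed, 41 moved and 0 reversed. Where no value shows it, the cause was not tested. The unknown depth limits genes near 1 FPKM, and differences between animals of a group cannot be read from these libraries.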
